A study of Mus musculus with 4 samples.

Results

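NF-κB is a family of dimeric transcription factors whose messenger RNAs, with those of their inhibitors, are described here in germinal centre (GC) B cells with and without the histone methyltransferase Nsd2. The members were taken by gene symbol. They are 5 subunits, Rel, Rela, Relb, Nfkb1 and Nfkb2, and 5 inhibitors, Nfkbia, Nfkbib, Nfkbie, Nfkbiz and Tnfaip3, and all 10 were among the 20735 genes listed. The 4 libraries came from GC B cells sorted out of the spleen after the C57BL/6 mice, 8 weeks of age, had received sheep red blood cells (SRBC), an antigen that starts a GC reaction. There were 2 libraries from Nsd2 wild-type (wt) cells and 2 from Nsd2 knockout (ko) cells, and immunization, age and strain were shared by both groups. How the knockout was made, in which cells the gene was removed, whether animals were pooled and whether the libraries came from separate mice are not given by the sources, so the p-values may measure technical spread only.

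In resting cells NF-κB dimers are held in the cytoplasm by IκB proteins. Signals from the B cell receptor, CD40 or Toll-like receptors activate the canonical route, in which IκB kinase marks the IκBs for destruction and dimers of c-Rel (Rel), RelA (Rela) and p50 (from Nfkb1) enter the nucleus. The alternative route, driven by BAFF receptor and CD40, stabilizes the kinase NIK and processes the Nfkb2 product p100 to p52, the partner of RelB (Relb). Several inhibitor genes are themselves NF-κB targets and form feedback loops. In mice, c-Rel is needed to maintain the GC reaction, and GC B cells signal through NF-κB mainly in the light zone, where they are selected by T cells.

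Because the genes of the pathway include targets of their own factors, the promoters of the members that rose are shown first. Windows of 300 bases, from 250 before to 50 after a RefSeq start site (GRCm38.p6), were matched by symbol for 7 of the 10 members, all but Relb, Nfkb1 and Nfkbiz. They were searched on both strands for a κB consensus decamer, written here as GGRNNYYYCC. In it R is A or G, Y is C or T and N is any base, and stricter forms would match fewer windows. Capitals mark bases inside a match, and overlapping matches run together. The Nfkbia window lies at chr12:55492598-55492897 on the minus strand, and the first of the 3 Nfkb2 windows at chr19:46304487-46304786 on the plus strand.
Nfkbia: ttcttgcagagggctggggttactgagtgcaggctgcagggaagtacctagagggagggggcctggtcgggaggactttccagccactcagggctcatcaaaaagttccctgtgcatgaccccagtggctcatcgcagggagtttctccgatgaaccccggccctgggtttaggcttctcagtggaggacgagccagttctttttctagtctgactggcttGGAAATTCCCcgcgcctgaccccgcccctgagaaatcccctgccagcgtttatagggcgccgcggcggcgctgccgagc
Nfkb2: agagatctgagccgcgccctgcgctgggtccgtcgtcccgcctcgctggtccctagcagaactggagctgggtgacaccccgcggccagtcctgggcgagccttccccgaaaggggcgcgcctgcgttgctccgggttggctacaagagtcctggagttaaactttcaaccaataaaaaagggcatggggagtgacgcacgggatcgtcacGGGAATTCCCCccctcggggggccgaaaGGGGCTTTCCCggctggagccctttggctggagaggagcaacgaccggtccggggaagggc
The Nfkbia window held 1 match, which starts at base -29 from the start site. The first Nfkb2 window held 4 overlapping matches in 2 clusters, starting at bases -39, -38, -11 and -10. The following stretches of 30 bases show the match in the second Nfkb2 window, which the third window shares, and 1 match each of Rel, Rela, Nfkbie and Tnfaip3. Capitals in these stretches mark only the match shown, and a Rel match from base -92 that overlaps it is not marked.
Nfkb2 second window, chr19:46305695-46305724, plus strand: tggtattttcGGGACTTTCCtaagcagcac
Rel, chr11:23771041-23771070, minus strand: gtaagcagcgGGAAATCCCCccccctcccc
Rela, chr19:5637313-5637342, plus strand: cagcaggcctGGGCCTCTCCctgcgcaggg
Nfkbie, chr17:45555584-45555613, plus strand: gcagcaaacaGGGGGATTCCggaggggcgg
Tnfaip3, chr10:19015403-19015432, minus strand: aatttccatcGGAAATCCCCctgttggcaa
The stretch of Nfkb2 carries GGGACTTTCC, the κB site first known from the immunoglobulin kappa enhancer, which 51 of all 32851 windows (0.155%) hold on either strand. That site was read from the Nfkb2 window before it was counted, and the Nfkb2 windows are among those that hold it. Its low share is therefore a description only. Of the 10 member windows 8 held the consensus decamer, from 6 genes, and the windows without one were that of Nfkbib and 1 of the 2 of Tnfaip3. Over all windows 19.5% held it, 3.91% held 2 or more and 0.785% held 3 or more, as the first Nfkb2 window did. Of the 7748 tested genes with a window, 26.6% held it in any window, and 5.92% held 2 or more in 1 window. The member windows were 47.0% to 75.0% G and C. Nfkbia and Nfkb2, which rose, and Rel, Rela, Nfkbie and Tnfaip3, which did not pass the test, all held a match, so the letters do not separate them. A match is a description of sequence, and binding was not measured.

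Values are FPKM, fragment counts scaled by transcript length and library size, as deposited. No counts were given, but the spacing of low values placed wt 2 at 94.2% of the depth of wt 1, and the ko libraries at 75.5% and 77.4%. On an approximate scale from single-transcript genes, the members rested on about 380 fragments (Nfkbiz in ko 1) to 8030 (Nfkb1 in wt 1), an error from counting alone of 1.3% to 5.1% in the shallowest library. Nsd2, listed as Whsc1, was at 76.9 and 81.4 FPKM in wt and 31.4 and 34.1 FPKM in ko (log2 fold change -1.25 ± 0.05 SE, limma adjusted p = 0.000353), lower in both libraries labelled ko. All 11 GC B cell markers looked up were present, and their summed FPKM was 2493 and 2507 in wt, against 2532 and 2551 in ko. Summed FPKM of 9 T cell markers was 1.13 to 1.24 in wt and 1.88 to 1.94 in ko, and that of 10 macrophage markers 5.51 to 6.56 in wt and 9.47 to 9.73 in ko. Most of the macrophage sum was Cd68, at 5.11 and 3.89 FPKM in wt, against 5.25 and 5.84 in ko (limma adjusted p = 0.202). Of the macrophage markers only C1qb had a lower mean in ko (0.22 in wt, 0.208 in ko). No T cell marker was high enough to be tested, and 5 were at 0 in at least 1 library. Much of the T cell sum was Thy1, at 0.44 and 0.472 FPKM in wt, against 0.824 and 0.895 in ko. The means of Cd3e (0.046 in wt, 0.151 in ko), Cd3d (0.0152 in wt, 0.12 in ko), Cd8a, Cd8b1, Cd28 and Il7r were also higher in ko. Those of Cd4 (0.208 in wt, 0.197 in ko) and Cd3g (0.142 in wt, 0.11 in ko) went the other way. In bulk samples, fewer cells of a type and less RNA per cell cannot be told apart.

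The members spanned a wide range of levels in both genotypes. Nfkb1 was highest with a mean of 75.1 FPKM over the 4 libraries, above 90.3% of the 10883 genes tested, and its lowest library lay above the highest of Rel. Rel (33.9), Nfkbia (33.7), Nfkb2 (28.4) and Rela (28 FPKM) followed as a group in which each neighbouring pair had overlapping ranges over the 4 libraries. Nfkbib (22.8) and Nfkbie (21.0) also overlapped each other and lay below Rela in every library. Relb (14.4), Tnfaip3 (9.05) and Nfkbiz (5.03 FPKM) came last, each without overlap with the gene above it.

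**Figure D1:**
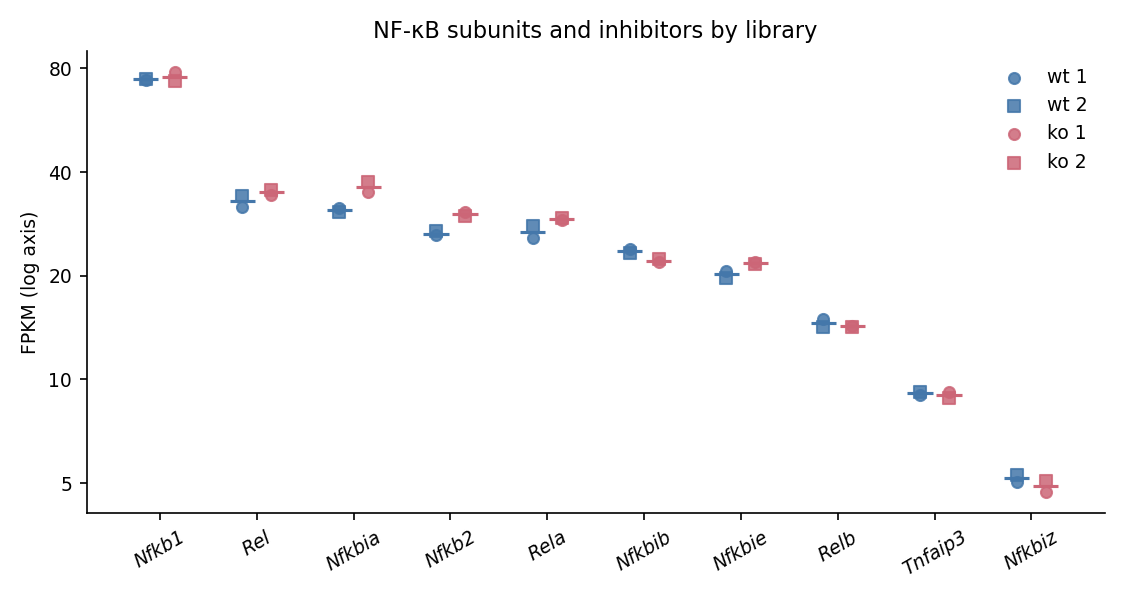
FPKM of the 10 members (log axis) in wt 1 and wt 2 (blue) and ko 1 and ko 2 (red), ordered by mean, with short lines for group means. The order of levels is shared by both genotypes for most genes. The red points of Nfkb2, Nfkbia, Rel, Rela and Nfkbie lie above both blue ones, as in 32.4% of all tested genes.

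In ko cells 2 members rose, Nfkb2 and Nfkbia, by 14.3% and 16.6% of FPKM, none fell, and the other 8 did not pass the test (limma on log2(FPKM + 1), Benjamini-Hochberg adjusted p below 0.05 over 10883 genes). Across all tested genes 12.9% passed, 6.66% upward and 6.2% downward, so 2 of 10 is not far from the background. By limma without adjustment, 2 members had a p below 0.05, both upward, a lower share than the 32.2% of all tested genes. The median log2 fold change of the 10 members was 0.055, against 0.012 over all tested genes. In 5 members both ko libraries lay above both wt libraries, in 1 below, and in 4 the groups overlapped, while 32.4% of tested genes lay above, 28.8% below and 61.2% did not overlap in all.

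**Figure D2:**
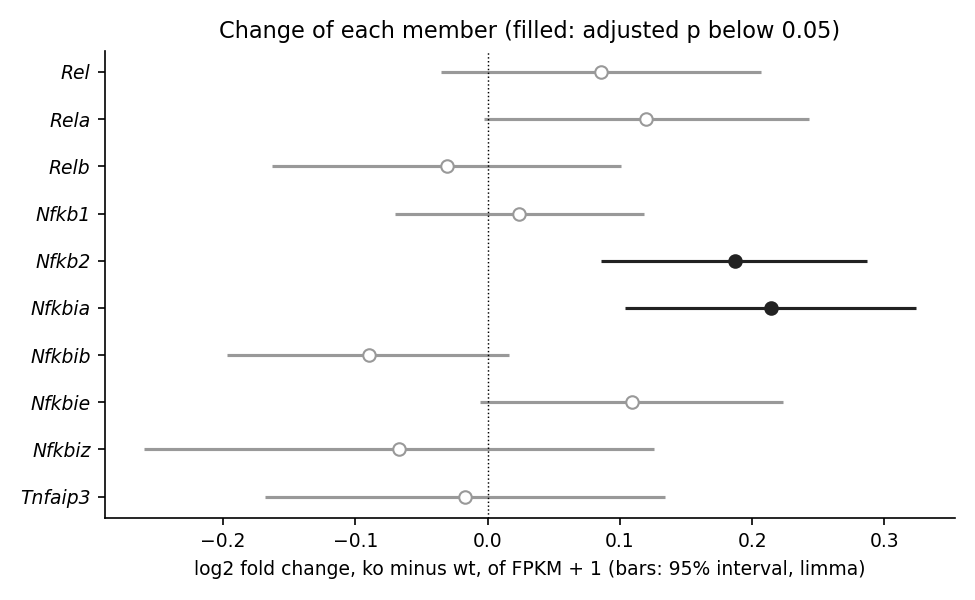
Log2 fold change of FPKM + 1, ko minus wt, for each member, with the 95% interval of the limma fit (2 libraries per group). Filled points, Nfkb2 at 0.19 and Nfkbia at 0.21, passed the adjusted threshold, and the intervals of the other 8 include 0.

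Among the canonical subunits, Rel encodes c-Rel and lies on GRCm38 chromosome 11, 23736847 to 23770970. It was at 31.6 and 34.2 FPKM in wt and 34.4 and 35.5 FPKM in ko. The lower ko library lay just above the higher wt library, and the gap between the wt libraries was wider than that between the groups' nearest values. The log2 fold change was 0.09 ± 0.05 (SE, limma adjusted p = 0.29, 95% interval -0.04 to 0.21). For Rel it was 0.029 without wt 1, 0.143 without wt 2 and 0.141 with the trend of fold change on GC content removed.

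Rela (chromosome 19, 5637483 to 5648130) encodes the strongly activating subunit p65. Its level was 25.7 and 27.9 FPKM in wt and 29.0 and 29.4 FPKM in ko. Both ko values lay above wt, with a log2 fold change of 0.12 ± 0.05 that missed the threshold (limma adjusted p = 0.165, interval -0.003 to 0.24). For Rela it was 0.062 without wt 1, 0.178 without wt 2 and 0.038 with the GC content trend removed.

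Nfkb1 (chromosome 3, 135584655 to 135691547) encodes p105, the precursor of p50. It was at 74.2 and 74.7 FPKM in wt and 78.2 and 73.3 FPKM in ko. The ko libraries lay on either side of both wt libraries, and the log2 fold change was 0.02 ± 0.04 (limma adjusted p = 0.711, interval -0.07 to 0.12). The Nfkb1 value was -0.021 without ko 1, 0.07 without ko 2 and 0.071 after removal of the GC content trend.

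The subunit that rose was Nfkb2 (ENSMUSG00000025225, chromosome 19, 46304320 to 46312385, plus strand), which encodes p100, both the precursor of p52 and, unprocessed, an inhibitor of RelB. It was at 26.2 and 26.9 FPKM in wt and 30.7 and 29.9 FPKM in ko. The groups did not overlap, and the ko mean of 30.3 ± 0.56 FPKM was 14.3% above the wt mean of 26.5 ± 0.49 (SD, n = 2). The log2 fold change was 0.19 ± 0.04 (SE, limma adjusted p = 0.037). With the trend of fold change on GC content removed it was 0.10 and did not pass (adjusted p = 0.167), the Nfkb2 transcript being 59.4% G and C against a median of 49.2% over tested genes. Exons of Psd, on the opposite strand, share 299 bases with those of Nfkb2, and Psd was at 0.743 and 0.841 FPKM in wt, against 1.17 and 1.28 in ko. The entry AC114539.1, also on the opposite strand, shares 531 exon bases with Nfkb2 and has no FPKM in any library. Whether the authors counted by strand is not stated, and the part of reads from Psd and AC114539.1 in the Nfkb2 value was not tested.

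Relb (chromosome 7, 19606217 to 19629438), whose product pairs with p52, was at 14.98 and 14.2 FPKM in wt and 14.3 and 14.2 FPKM in ko. The groups overlapped, and the log2 fold change was -0.03 ± 0.055 (limma adjusted p = 0.737, interval -0.16 to 0.10). It was 0.005 without wt 1, -0.067 without wt 2 and -0.095 after removal of the GC content trend. The ratio of Nfkb2 to Relb FPKM was 1.75 and 1.89 in wt, against 2.14 and 2.11 in ko, a ratio chosen, like that of Nfkbia to Nfkbib, after the values were seen, so that its direction is a description only.

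The makeup of the subunit messages varied little. Nfkb1 gave 43.0% and 42.0% of summed subunit FPKM in wt and 41.9% and 40.2% in ko, and Rel gave 18.3% to 19.5% over the 4 libraries. The alternative pair Relb and Nfkb2 together made up 23.8% and 23.1% in wt and 24.1% and 24.2% in ko. Within that pair, the Nfkb2 share was 15.2% and 15.1% in wt and 16.5% and 16.4% in ko, and the Relb share 8.68% and 7.98% in wt and 7.68% and 7.77% in ko.

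**Figure D3:**
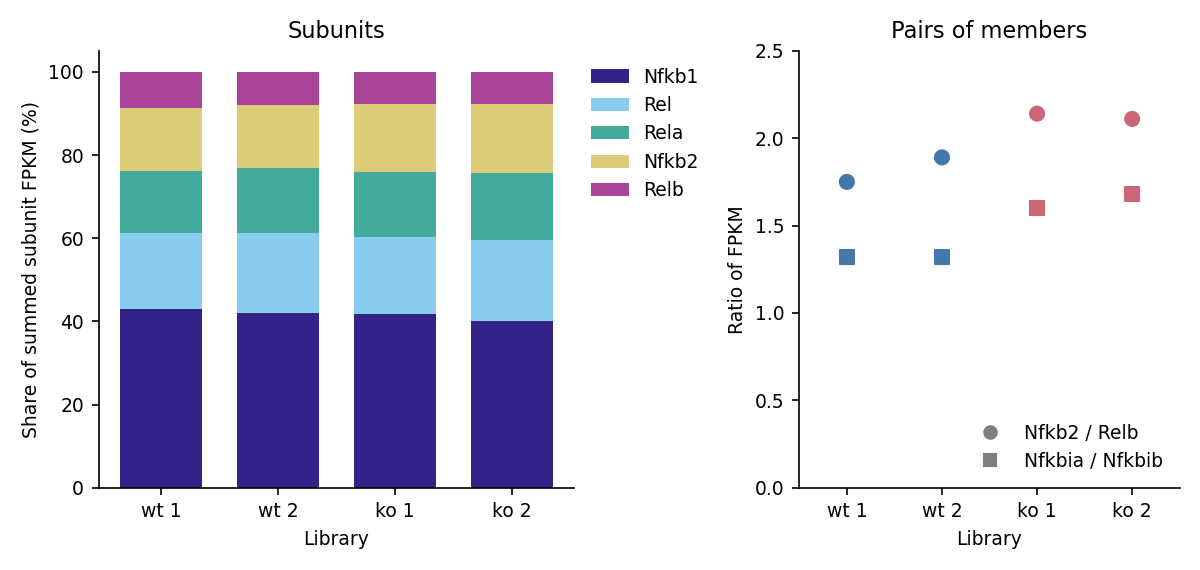
Left, the share of each subunit in summed subunit FPKM (%), by library. Right, the ratios of Nfkb2 to Relb (circles) and of Nfkbia to Nfkbib (squares) by library, wt in blue and ko in red. The stacks look alike, while both ratios, of pairs chosen after their values were seen, are higher in the 2 ko libraries than in the 2 wt libraries.

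Of the classical IκB genes, Nfkbia rose. It encodes IκBα, the rapidly resynthesized feedback inhibitor (ENSMUSG00000021025, chromosome 12, 55489410 to 55492647, minus strand). It was at 31.5 and 30.7 FPKM in wt and 35.1 and 37.4 FPKM in ko. The groups did not overlap, with means of 31.1 ± 0.55 and 36.2 ± 1.61 FPKM (SD, n = 2), a difference of 16.6%. The log2 fold change was 0.21 ± 0.05 (SE, limma adjusted p = 0.0331), and 0.18 after removal of the GC content trend, where it missed the threshold narrowly (adjusted p = 0.0504).

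Nfkbib, encoding IκBβ (chromosome 7, 28758251 to 28767512), was at 23.9 and 23.3 FPKM in wt and 21.9 and 22.3 FPKM in ko. Both ko libraries lay below wt, against the direction of Nfkbia, with a log2 fold change of -0.09 ± 0.04 that did not pass (limma adjusted p = 0.217, interval -0.20 to 0.02). With the GC content trend removed the Nfkbib value was -0.17 and just missed the threshold (adjusted p = 0.0541). Exons of Sirt2, on the opposite strand, share 42 bases with it, and Sirt2 lay between 23.2 and 24.4 FPKM in all 4 libraries. Those of Ccer2, also on the opposite strand, share 314 bases with Nfkbib, and Ccer2 has no FPKM in any library.

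Nfkbie, encoding IκBε (chromosome 17, 45555703 to 45563169), was at 20.7 and 19.7 FPKM in wt and 21.97 and 21.7 FPKM in ko. The ko libraries lay above wt, and the log2 fold change of 0.11 ± 0.05 missed the threshold (limma adjusted p = 0.172, interval -0.01 to 0.22), and was 0.058 with the GC content trend removed. Together the 3 classical IκB genes were at 76.0 and 73.7 FPKM in wt, against 79.0 and 81.4 in ko. Nfkbia made up 41.4% and 41.7% of that sum in wt and 44.5% and 45.9% in ko. Against summed subunits the IκB sum was 0.441 and 0.414 in wt, against 0.423 and 0.446 in ko, where the groups overlapped.

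Nfkbiz and Tnfaip3 act elsewhere in the pathway. Nfkbiz (chromosome 16, 55811375 to 55838899) encodes IκBζ, a nuclear cofactor that helps induce some NF-κB targets, and was at 5.04 and 5.29 FPKM in wt, against 4.71 and 5.07 in ko. The groups overlapped (log2 fold change -0.07 ± 0.08, limma adjusted p = 0.609, interval -0.26 to 0.13), and the Nfkbiz value was -0.038 without wt 2, -0.022 without ko 1 and -0.112 without ko 2. Tnfaip3 (chromosome 10, 19000910 to 19015657) encodes A20, the ubiquitin-editing enzyme that stops signals to IκB kinase. It was at 9.004 and 9.22 FPKM in wt and 9.17 and 8.82 FPKM in ko. These values also overlapped (log2 fold change -0.02 ± 0.06, limma adjusted p = 0.876, interval -0.17 to 0.13), and the Tnfaip3 value ran from -0.042 to 0.009 over the alternatives tried.

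The rises of Nfkb2 and Nfkbia were close to the threshold. When 1 library was left out neither passed, whichever it was, with log2 fold changes of 0.168 to 0.205 for Nfkb2 (limma adjusted p = 0.092 to 0.142) and 0.17 to 0.26 for Nfkbia (0.0541 to 0.119). The direction was the same in each of these fits. They also missed it with no filter on low values (0.104 and 0.117), without a trend of spread on expression (0.088 and 0.0903) and with the replicate number as a block (0.0669 and 0.059), and Nfkb2 missed it after quantile normalization (0.0626).

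**Figure D4:**
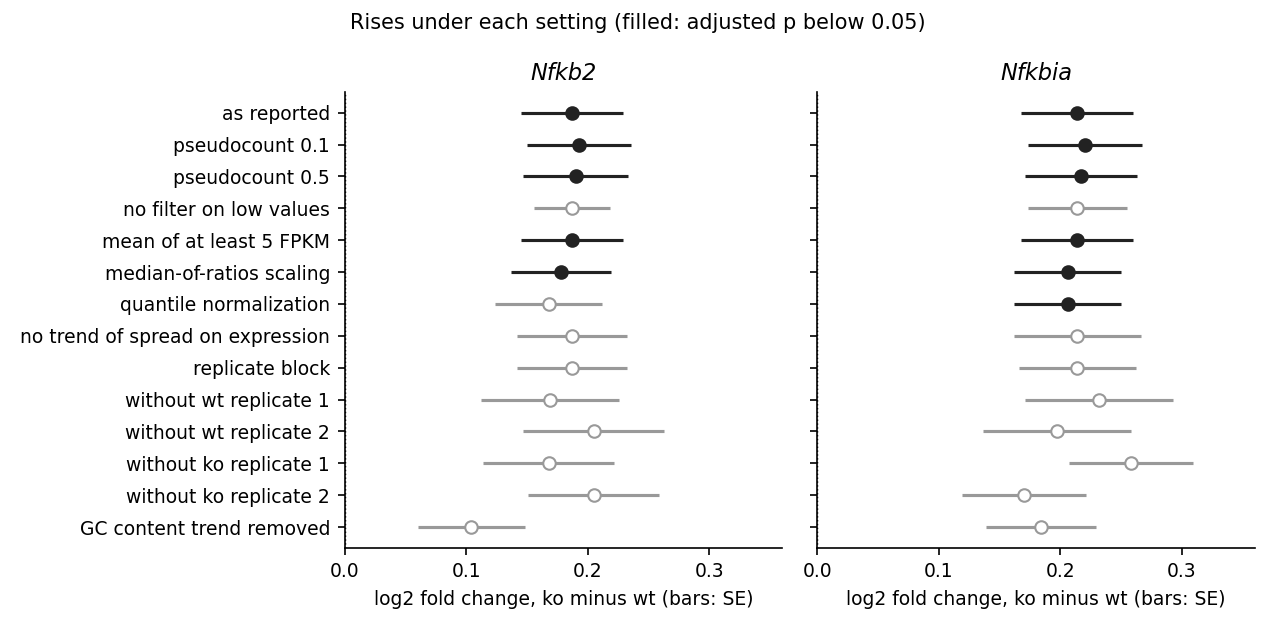
Log2 fold change, ko minus wt, of Nfkb2 and Nfkbia with its SE under the fit as reported and each alternative. All points lie above 0, from 0.104 to 0.205 for Nfkb2 and from 0.17 to 0.26 for Nfkbia, and filled points passed an adjusted p of 0.05.

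The genes whose values over the 4 libraries were most like those of Nfkb2, by Euclidean distance of the log2 deviations from the gene's mean, were Adar, an RNA-editing enzyme, Hjurp, a chaperone of centromeric histone, and Tmx2, at distances of 0.0092, 0.0098 and 0.0099. For Nfkbia they were Isyna1, an inositol synthesis enzyme, and the entries Pisd-ps1 and Gm13436, the latter of which did not pass the test, at 0.0073, 0.0102 and 0.0123. Nfkb2 and Nfkbia lay 0.105 apart, and of the ko libraries Nfkb2 was higher in ko 1 and Nfkbia in ko 2. With 4 libraries such likeness is a description only.

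Beyond the members, 79 genes of the pathway in 5 role lists were looked up, of which 71 were tested. Of these 9 rose, 3 fell and 59 did not pass, 16.9% against the 12.9% of all tested genes, with a median log2 fold change of 0.061. Traf1 and Otud7b passed with each of the 4 libraries left out in turn, and the other 10 lost their call in at least 1 of those fits.

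Of 9 receptor genes tested none rose and 2 fell. Tlr4, the receptor for bacterial lipopolysaccharide, was at 6.00 and 6.11 FPKM in wt, against 3.95 and 4.02 in ko (log2 fold change -0.50 ± 0.075 SE, limma adjusted p = 0.0151). Cd79b, a signalling chain of the B cell receptor, had a log2 fold change of -0.10 (adjusted p = 0.0297). Tnfrsf13c, which encodes the BAFF receptor, was at 145.0 and 149.7 FPKM in wt, against 155.8 and 158.0 in ko and did not pass (adjusted p = 0.0869). Cd40 was at 28.1 and 29.6 in wt, against 26.5 and 26.4 in ko, and Tlr7 at 1.84 and 2.31 in wt, against 2.59 and 3.29 in ko, also without passing (0.124 and 0.122), and the log2 fold change of Tlr7 was 0.358, or 0.229 without ko 2.

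Among the kinases, Map3k14, which encodes NIK, the kinase that starts p100 processing, was at 9.13 and 9.07 FPKM in wt, against 10.3 and 10.2 in ko (log2 fold change 0.16 ± 0.06, limma adjusted p = 0.129). Prkcb, a protein kinase C that acts after the B cell receptor, had 0.06 (adjusted p = 0.171), and Tab3 had -0.26 (adjusted p = 0.126). With the GC content trend removed Map3k14 was at 0.077 and Prkcb at 0.03. Of 10 ubiquitin ligase and TRAF adaptor genes 1 rose, Rnf31, which encodes HOIP, the catalytic subunit of the linear ubiquitin complex. It was at 14.1 and 14.0 FPKM in wt, against 16.5 and 16.1 in ko (0.20 ± 0.05, limma adjusted p = 0.0492, and 0.0557 after median-of-ratios scaling). Birc2, Sharpin and Traf5 had 0.19, 0.10 and 0.06 and did not pass. Without ko 2 Birc2 was at 0.101 and Sharpin at 0.03, without ko 1 Sharpin was at 0.163, and without wt 1 Traf5 was at 0.04. With the GC content trend removed Sharpin was at 0.048 and Traf5 at 0.117.

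Of 16 other inhibitors 2 rose and 1 fell. Nfkbid encodes the nuclear IκB protein IκBNS, and rose from 14.2 and 14.2 FPKM in wt to 16.6 and 18.0 in ko (0.27 ± 0.06, limma adjusted p = 0.0339). Tnip1, an A20-binding protein, rose from 18.9 and 17.1 to 21.2 and 21.97 FPKM (0.25 ± 0.06, adjusted p = 0.0457). It missed the threshold after median-of-ratios scaling (0.0528), and its log2 fold change was 0.32 without wt 1 and 0.18 without wt 2. Otud7b, a deubiquitinase that limits the alternative route through TRAF3, fell from 4.73 and 5.36 FPKM to 2.73 and 2.72 (-0.70 ± 0.09, adjusted p = 0.0111). Bcl3, another nuclear IκB, was at 19.1 and 17.4 FPKM in wt, against 21.1 and 21.8 in ko and missed the threshold (0.22 ± 0.06, adjusted p = 0.0535), as did Zc3h12a and Commd1 (0.0692 and 0.0835). Bcl3 was at 0.132 with the GC content trend removed, and Commd1 went from -0.238 to -0.128 without wt 1.

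Of 22 target genes tested 6 rose and none fell, 27.3% against 6.66% of all tested genes upward, and 20 had a fold change above 0, as 53.0% of all tested genes did. By limma without adjustment, 11 had a p below 0.05, all upward, where 17.1% of all tested genes did so upward and 15% downward. The list was drawn up with earlier results of these data known, so this is no independent evidence of its direction. Traf1, a signalling adaptor, rose from 38.7 and 38.3 FPKM to 48.3 and 47.9 (0.31 ± 0.035, limma adjusted p = 0.00802). Cflar, which encodes the caspase-8 inhibitor cFLIP, rose from 15.9 and 15.2 to 19.1 and 19.9 FPKM (0.31 ± 0.05, adjusted p = 0.0192). Ccl22, a chemokine that draws T cells, was low, at 0.996 and 1.05 FPKM in wt, against 2.04 and 2.35 in ko (0.66 ± 0.11, adjusted p = 0.0188). Cd86, Ebi3 and Ccnd2 rose by 0.17, 0.57 and 0.31 on the log2 scale. Bcl2l1, Ccr7 and Junb, at 0.26, 0.37 and 0.15, missed the threshold (adjusted p = 0.0506, 0.0713 and 0.112). Without ko 2 Ccr7 was at 0.245 and Junb at 0.075, and Junb was at 0.232 without ko 1 and 0.06 with the GC content trend removed. Bcl2l1 passed with a 5 FPKM filter (0.045) and a pseudocount of 0.1 (0.0499).

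**Figure D5:**
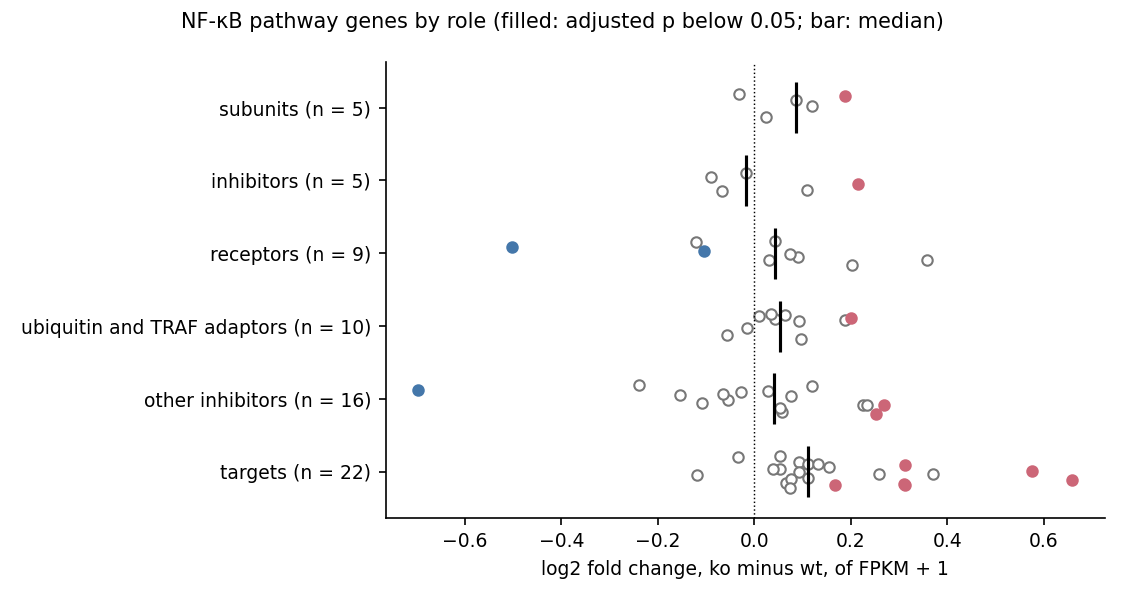
Log2 fold change of FPKM + 1, ko minus wt, of each tested gene in 6 of the role groups, with a bar at the median of each list. Red filled points rose, blue filled points fell and open points did not pass. The medians run from -0.02 for the member inhibitors to 0.11 for the targets, and most points lie within 0.2 of 0.

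Genes of 4 other lists were counted in the same libraries, against 6.66% of all tested genes that rose and 6.2% that fell. These lists too were drawn up with earlier results of these data known, so their shares are no independent evidence of a direction. Of 22 stress and immediate early genes tested, a sign of signalling as well as of cell handling, 8 rose, none fell and 14 did not pass (36.4% called), among them Hspa1b from 1.84 and 2.29 to 6.21 and 6.78 FPKM (limma adjusted p = 0.00305), Ppp1r15a and Nr4a1. Of 13 light zone genes 5 rose (38.5%), Traf1, Egr3, Batf, Cd86 and Ccnd2, though 8 of that list are also in the pathway lists. Of 10 dark zone genes 1 fell (10%), Mki67, a marker of cycling cells. In 9 of the 10 both ko libraries lay below both wt libraries, where 28.8% of all tested genes did, and 7 had an unadjusted limma p below 0.05, all downward, against 15% of all tested genes. The median log2 fold change of the dark zone list was -0.10. Of 9 naive and follicular genes 6 rose (66.7%), with Cr2, which encodes complement receptor CD21, from 82.6 and 81.1 to 97.4 and 98.5 FPKM (adjusted p = 0.00827). All 10 macrophage markers were listed, with only Cd68 and Lyz2 tested, and Lyz2 rose from 0.333 and 0.605 to 1.59 and 1.64 FPKM (adjusted p = 0.0179). Among the defining macrophage markers Fcgr1 was at 0 in both wt libraries and Cd14 at 0 in wt 2. Summed FPKM of 6 dendritic cell markers was 8.85 and 9.29 in wt, 11.56 in ko 1 and 10.98 in ko 2, most of it Flt3, and Clec9a was at 0 in wt 2 and ko 1 and Siglech in all but wt 1. The part of these groups in the values of Nfkb2 and Nfkbia was not tested.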

How the data were processed

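RNA from sorted spleen cells was made into mRNA-seq libraries, per the labels' protocols. The authors deposited FPKM per gene, per the file headers, in 1 table per library with no counts. Bowtie2 2.2.9, TopHat2 2.1.1 and mm10 are named without role in the submitters' processing notes. No source used here names the tool behind FPKM, its annotation, use of strand or any filter. FPKM hides depth, and a gene absent from 1 table but present in another was set to 0.

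Members and lists were chosen with earlier results of these data known. Genes averaging 1 FPKM or more (10883) were tested on log2(FPKM + 1) by limma 3.58.1 (R 4.3.3), spread being allowed to follow expression, and p-values were Benjamini-Hochberg adjusted over all of them at 0.05. Fold changes on this scale understate those of low genes, and each SE is the model's. Since 2 against 2 libraries allow no exact permutation p below 0.333, spread was pooled across genes. The fit was also run on simulated data, with normal noise of the spread it had estimated and 200 changed genes. That run cannot show whether its p-values hold for these libraries. Positions, lengths and GC content came from GENCODE M21 (GRCm38, the assembly of mm10), which matched 99.4% of IDs, and promoters from RefSeq. Named genes were Nsd2, all members, every passing pathway gene with the next 3 by p in each list, up to 4 context genes by p or 3 markers by level, and the 3 genes most like each member that rose. Others are named to account for a count, a sum or a level at 0. Alternatives covered pseudocount, filter, scaling, variance model, block, GC content, threshold and each library. The summary of 1 pathway list is not reported here. Tables were joined with Python 3.11.15 and pandas 2.3.3.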

Additional observations from a re-analysis of the deposited data

How the results depend on the processing

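The count of members changed, 2 as reported, became 0 with no filter on low values, without the trend of spread, with the replicate block, with the GC content trend removed and at an adjusted p below 0.01, 1 after quantile normalization, and 0 to 0 when 1 library was left out. By limma without adjustment 2 to 4 members had a p below 0.05 in each of these fits, where 20% to 32.2% of all tested genes did. The count of other pathway genes changed went from 12 to 0 with no filter, 5 without the trend, 7 with the replicate block, 1 at an adjusted p below 0.01 and 2 to 4 with 1 library left out. The count of all genes changed went from 1400 to 14, 536, 917 and 137 under the same settings in that order, to 2540 at 0.10, and to 348 to 595 with 1 library left out. The count of members stayed at 2 under both other pseudocounts, a 5 FPKM filter, median-of-ratios scaling and the threshold of 0.10. Why these counts moved was not tested.

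Direction turned for uncalled genes near 0. With the GC content trend removed the log2 fold change was -0.015 for Cd79a, 0.034 for Jchain and 0.009 for Tnfaip3. With 1 library left out, values ran from -0.067 to 0.005 (without wt 1) for Relb, from -0.021 (without ko 1) to 0.07 for Nfkb1, from -0.042 to 0.008 (without ko 2) for Tnfaip3, and from -0.026 to 0.024 for Xbp1, which was above 0 without wt 2 (0.018) and without ko 1. The labels do not say whether replicate numbers pair the libraries. Deviations of same-numbered libraries correlated at -0.083 and those of other-numbered libraries at 0.083. With 2 libraries per group these values mirror each other, so they cannot show whether the libraries were paired. Depth limits Nfkbiz most, at an approximate counting error of 5.1%.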
